A study of Mus musculus with 6 samples.

Results

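FGF21 is a hormone of the fibroblast growth factor (FGF) family that the liver secretes, and its system was described here in livers of socially isolated and control mice through 7 genes: the ligand Fgf21, the transcription factor Creb3l3 that induces it, the co-receptor Klb and the receptors Fgfr1, Fgfr2, Fgfr3 and Fgfr4. The genes were chosen for their roles around Fgf21, and Fgf21 itself because an earlier pass over these arrays had shown it lower in isolated mice. All probe sets annotated to exactly 1 of these symbols were taken, 17 of the 45037 probe sets of the array. The isolated minus control differences of the 7 genes are therefore given as a description, without a test.

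Livers came from male BALB/c mice kept singly, with less bedding than controls, for 30 days (3 arrays), and from male BALB/c control mice (3 arrays). All were 10 weeks old, had arrived when 4 weeks old, spent the 10 days before isolation in cages of 5, and ate and drank freely. No allele or drug distinguished the groups. Nothing in the labels states whether an array stands for 1 mouse, so the spread between arrays may be partly technical. The labels also leave out when in the day livers were taken and whether the mice had been fed. A difference between the groups in either cannot be told apart from isolation.

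FGF21 acts through a receptor pair: the membrane protein beta-Klotho (Klb) binds the hormone and presents it to an FGF receptor tyrosine kinase, which then signals through the RAS-ERK cascade. In liver its gene is a classic target of the fatty acid sensor PPARalpha and of CREB3L3 (CREBH), a membrane-bound factor freed by proteolysis, and it also answers to ATF4, the factor of the amino acid and endoplasmic reticulum stress response, and to the sugar sensor ChREBP (Mlxipl). FGFR4 with beta-Klotho is known as the hepatocyte receptor for the gut hormone FGF15, which represses bile acid synthesis, whereas FGFR1 with beta-Klotho carries FGF21 action in fat and brain.

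The sequences before the starts of Fgf21 and Creb3l3 are shown because Fgf21 is the gene of the system that was lower in isolated mice and Creb3l3 codes for its inducer. Each is the 250 bases before an annotated start, on the gene's strand, from RefSeq on GRCm38.p6, chr7:45615491-45615740 for Fgf21 and chr10:81092592-81092841 for one of the annotated starts of Creb3l3, both on the minus strand. Capitals mark every match, on either strand, to TGATGCAAT (a C/EBP-ATF composite element), CACGTG (an E-box), AGGTCA (a nuclear receptor half-site), TGACG (a half-site of the cyclic AMP response element, CRE) and TGACGTCA (the full CRE, which contains TGACG).
Fgf21: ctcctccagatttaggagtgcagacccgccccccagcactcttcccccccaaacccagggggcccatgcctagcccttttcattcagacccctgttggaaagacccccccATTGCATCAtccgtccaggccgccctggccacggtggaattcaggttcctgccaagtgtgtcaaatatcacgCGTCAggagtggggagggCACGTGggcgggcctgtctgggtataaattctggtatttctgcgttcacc
Creb3l3: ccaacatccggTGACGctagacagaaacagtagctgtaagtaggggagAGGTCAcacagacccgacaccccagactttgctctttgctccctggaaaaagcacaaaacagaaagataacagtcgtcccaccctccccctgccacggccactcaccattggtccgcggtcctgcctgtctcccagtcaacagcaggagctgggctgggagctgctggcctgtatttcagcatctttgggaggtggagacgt

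The Fgf21 window held TGATGCAAT, as ATTGCATCA, from base -140 to -132, the CRE half-site, as CGTCA, from -68 to -64, and CACGTG from -50 to -45, counting the base before the start as -1. It held neither AGGTCA nor the full CRE. Of the 32851 RefSeq windows of the same length, 0.167% held TGATGCAAT, 6.02% CACGTG, 14.0% AGGTCA, 17.8% TGACG and 1.55% TGACGTCA. The Creb3l3 window shown held TGACG from -239 to -235 and AGGTCA from -202 to -197, and the window at its other annotated start, chr10:81098873-81099122, held none of the motifs. Among the windows of Klb, Fgfr2, Fgfr3 and Fgfr4, TGACG in Klb from -146 to -142 was the 1 match. These are matches of letters in short windows, the motifs were picked after the Fgf21 window had been read, and no binding was measured.

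Values are MAS5 signals, the linear brightness that the Affymetrix algorithm gives each probe set, and differences between groups are of mean log2(signal + 2), isolated minus control. The brighter 50% of probe sets, ranked by mean log2 value, were tested across the array with limma, which set a floor at a signal of about 18.0. Of the 17 probe sets, 11 passed this filter: those of Fgf21 and Creb3l3, 1 of 2 of Klb, 0 of 3 of Fgfr1, 2 of 3 of Fgfr2, 2 of 2 of Fgfr3 and 4 of 5 of Fgfr4. In that fit 1 of the 11, Fgf21, was called at an adjusted p under 0.05, beside 1.63% of all 22519 tested probe sets, and since Fgf21 was chosen on this contrast nothing is read from the count. The groups did not overlap in Fgf21 among the 11, beside 15.4% of tested probe sets, and in 1 probe set of Fgfr1 among the 6 below the filter, beside 10.3% of all probe sets below it. The median difference was -0.17 over the 10 tested probe sets other than Fgf21, of which 6 lay below 0. Over all 22519 tested probe sets the median was 0.04, and 10035 lay below 0.

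**Figure D1:**
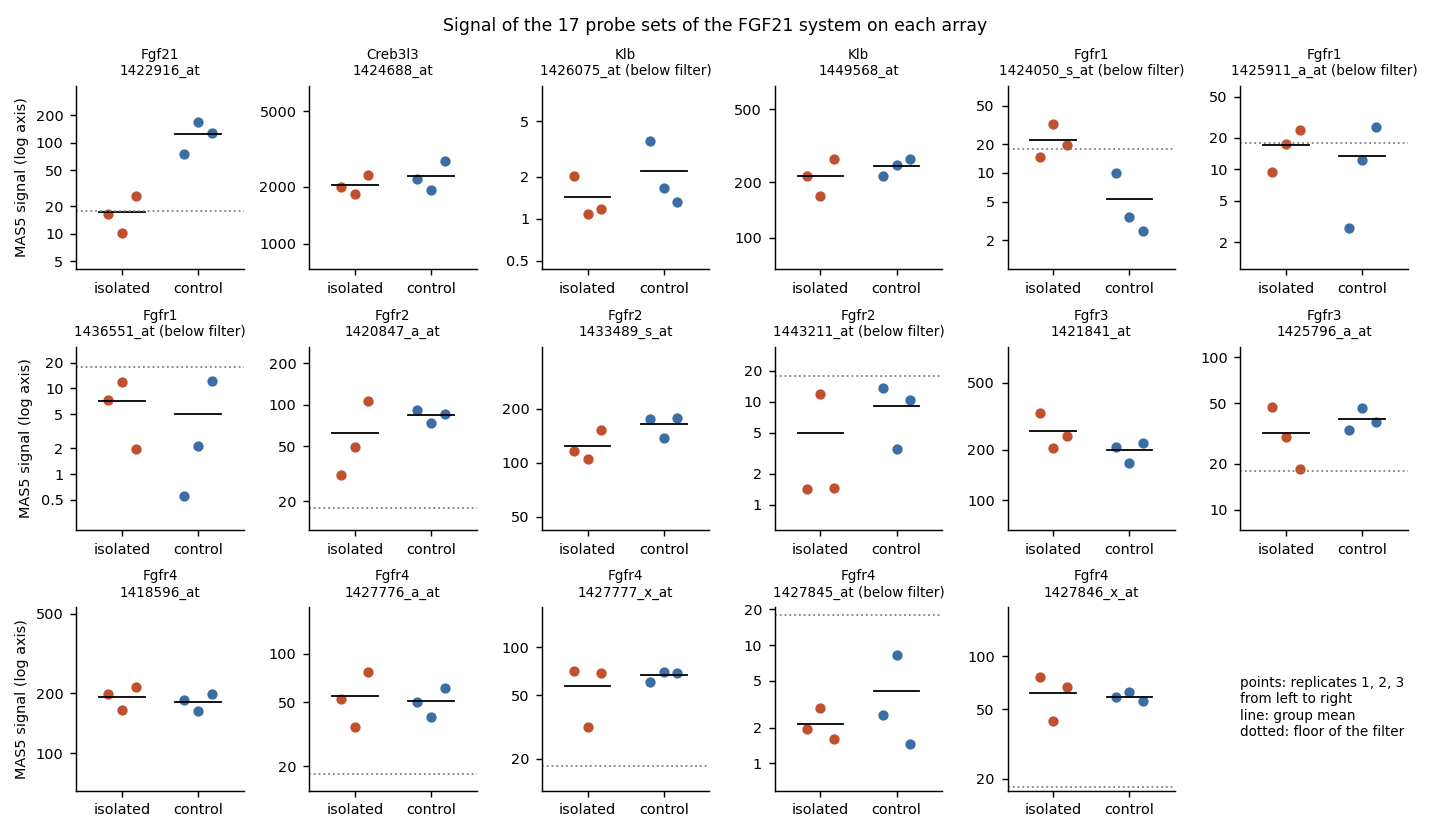
MAS5 signal (log axis) of each of the 17 probe sets on the 3 isolated and 3 control arrays, with the group mean as a line and the floor of the filter as a dotted line where it falls in the panel. Fgf21 lies between 10.3 and 26.0 on isolated arrays and between 75.3 and 169.6 on control arrays, while the tested probe sets of the other genes overlap between groups.

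Fgf21 was the 1 member above the filter whose groups did not overlap. Its signal was 16.5, 10.3 and 26.0 on isolated arrays 1, 2 and 3, against 75.3, 169.6 and 127 on control arrays 1, 2 and 3. Every isolated array lay below every control array. The means were 17.6 ± 7.93 in isolated livers and 124 ± 47.2 in control livers (SD, n = 3 each), a difference of -2.69 ± 0.32 (limma SE) on the log2 scale, or 6.45-fold lower in isolated livers. The SE from the spread of the Fgf21 values alone, without limma's borrowing across probe sets, was 0.48. Isolated arrays 1 and 2 lay under the floor of the filter, so the fold is approximate, and it was 4.07 with a pseudocount of 16. The isolated mean, 17.6, also lay under the floor, so Fgf21 passed the filter through the control arrays. With 1 array left out at a time, the log2 difference ran from -3.00 without control replicate 1 to -2.39 without isolated replicate 2. Replicates of a group spread widely in this probe set, with a coefficient of variation of 45.0% in isolated livers and 38.1% in control livers. A bulk liver sample cannot tell fewer expressing cells from less Fgf21 RNA per cell.

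The exocrine pancreas, which lies close to the liver, is also known for abundant Fgf21 transcript, so markers of pancreatic acinar cells were read beside it. Of 7 markers, 5 had a single-symbol probe set, 0 were called, and their summed signal ran from 604 to 906 in isolated livers and from 511 to 703 in control livers. That sum was mostly Cela1, at 556 to 870 on isolated arrays and 434 to 691 on control arrays, and the digestive enzyme genes Cpa1 and Ctrb1 stayed at 2.94 or less on every array. Prss2, a trypsinogen gene below the filter, read 1.16, 20.2 and 20.1 on isolated arrays 1, 2 and 3. On control arrays 1, 2 and 3 it read 5.72, 41.7 and 24.9. Prss2 and Fgf21 were both highest on control array 2, on which Cela1, at 434, was the lowest of all arrays. The elastase gene Cela3b read 31.0, 24.8 and 23.8 on isolated arrays 1, 2 and 3, against 3.08, 29.1 and 34.0 on control arrays 1, 2 and 3. The groups overlapped in Prss2 and Cela3b, and the part of acinar cells in the Fgf21 values was not tested. Hepatocyte markers summed to between 68314 and 73091 in isolated livers and between 69570 and 74075 in control livers, with 0 of 7 called.

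Creb3l3, which codes for the liver factor CREBH, had signals of 2008, 1843 and 2297 on isolated arrays 1, 2 and 3, against 2206, 1922 and 2734 on control arrays 1, 2 and 3. The groups overlapped, and in both the second array was the lowest and the third the highest. The means were 2049 ± 229.9 in isolated livers and 2287.5 ± 412 in control livers (SD, n = 3 each), and the log2 difference was -0.15 ± 0.15 (SE), from -0.27 without control replicate 2 to -0.01 without control replicate 3. In mean log2 signal over the 6 arrays, 98.3% of all probe sets lay at or below that of Creb3l3.

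Other genes on which CREB3L3 is known to act showed no call. Of 10 tested genes 0 were called higher and 0 lower, beside 0.901% of all tested genes called higher and 0.847% called lower. Of the 10 log2 differences 8 lay below 0, beside 4569 of all 10986 tested genes, each represented by its brightest tested probe set. The median was -0.20 over the 10 genes and 0.05 over all tested genes. The gluconeogenic gene G6pc, glucose-6-phosphatase, had signals of 1288, 2029 and 2695 in isolated livers against 3106, 2861 and 3108 in control livers, without overlap, and a limma adjusted p of 0.0881. It passed in 3 of 16 alternatives, one of them without isolated replicate 3, on which G6pc was brightest among isolated arrays, at an adjusted p of 0.00942. The log2 difference of -0.66 was -0.37 without isolated replicate 1, with an adjusted p of 0.397. Pck1, which makes phosphoenolpyruvate, had a log2 difference of -0.41 ± 0.14 and a limma adjusted p of 0.204, passed at 0.0407 without isolated replicate 3, and had -0.26 (0.612) without isolated replicate 1.

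**Figure D2:**
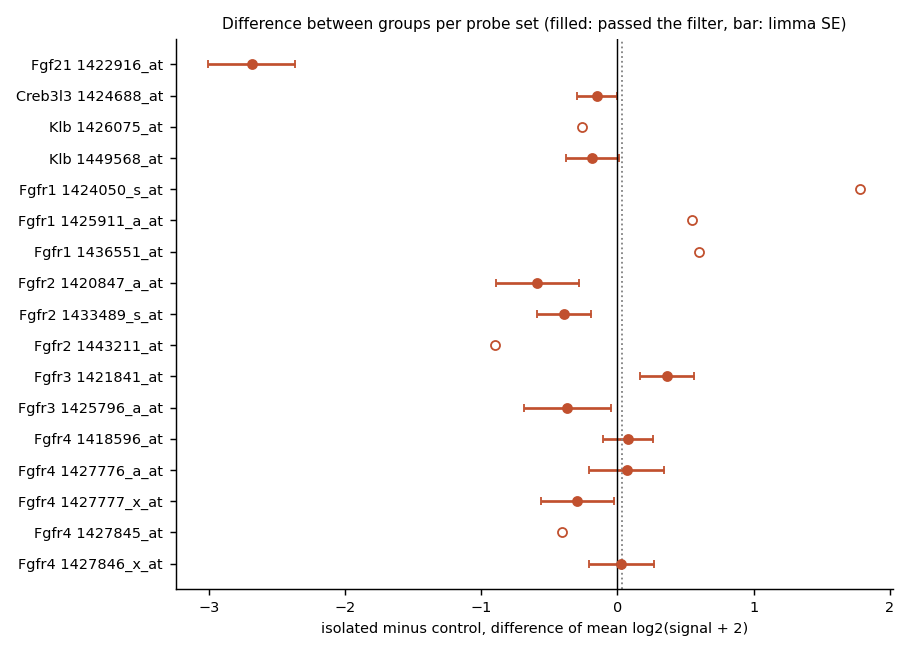
Isolated minus control difference of mean log2(signal + 2) for each of the 17 probe sets, with limma SE bars for the 11 that passed the filter (filled) and open points without error for the 6 that did not, and the median of all tested probe sets dotted. Fgf21 stands at -2.69, the other filled points lie between -0.59 and 0.36, and the 3 Fgfr1 probe sets, all below the filter, lie above 0.

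Among the factors known to control Fgf21 transcription or to cleave CREB3L3, Ppara and Nfil3 fell and 0 rose of 24 tested, beside 0.847% of all tested genes called lower. Ppara, the nuclear receptor that turns on Fgf21 in fasting, had signals of 839, 749 and 1167 in isolated livers against 1411, 1396 and 1768 in control livers, 1.68-fold lower with a limma adjusted p of 0.022. Each isolated array lay below each control array. A second probe set of Ppara was also called lower, with a log2 difference of -0.95 and a limma adjusted p of 0.00168, and the third had a log2 difference of -0.47 and was not called (0.247). Nfil3, a repressor that lowers Fgf21 in response to insulin, had signals of 182, 103 and 134 in isolated livers against 249, 267 and 261 in control livers, 1.89-fold lower with a limma adjusted p of 0.0185. Again the groups did not overlap, and the controls lay close together. Rora was not called in its brightest tested probe set, with a log2 difference of -0.54 and a limma adjusted p of 0.138. Of its 7 tested probe sets 1 was called lower. With the probe set of smallest p taken per gene, 3 genes of the list were called lower. The list median was 0.01, and neither ATF4, ChREBP (Mlxipl) nor the cleaving proteases Mbtps1 and Mbtps2, named here after their values were seen, was called, with log2 differences of 0.14, -0.17, -0.04 and 0.05. Neither call held in limma without the intensity trend, at 0.264 for Ppara and 0.198 for Nfil3, or without the filter, at 0.0931 for Ppara and 0.0537 for Nfil3, and leaving out 1 array ended each call in 3 of 6 cases (isolated replicates 1 and 2 and control replicate 3 for Ppara, isolated replicate 2 and control replicates 2 and 3 for Nfil3), at adjusted p from 0.0556 to 0.124. Without isolated replicates 2 and 3 Nfil3 did not pass either (0.647).

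PPARalpha target genes, which share that regulator with Fgf21, were the list with the most calls: 10 of 25 tested genes fell and 0 rose, beside 0.847% of all tested genes called lower. The list median was -0.29, and 22 of the 25 differences lay below 0, beside 4569 of all 10986 tested genes. An earlier pass over the same arrays had already shown PPARalpha targets lower, so this is not independent support. Pdk4, which encodes a kinase that shuts off pyruvate dehydrogenase, had signals of 17.5, 26.6 and 19.9 in isolated livers against 153, 679 and 408 in control livers. The fall was 15.3-fold with a limma adjusted p of 1.34e-06, and the log2 difference of -3.93 was -4.52 without control replicate 1 and -3.31 with a pseudocount of 16. Isolated array 1 lay under the floor of the filter in Pdk4, so the fold is approximate. Angptl4, an inhibitor of lipoprotein lipase, had 384, 396 and 788 in isolated livers against 1807, 1715 and 2888 in control livers, a log2 difference of -2.07 with a limma adjusted p of 1.91e-05. Acot1, an acyl-CoA thioesterase, had 351, 493 and 334 in isolated livers against 917, 1515 and 1721 in control livers, with a limma adjusted p of 2.73e-05. All 3 genes separated the groups without overlap. Cyp4a14, a fatty acid omega-hydroxylase, had 54.7, 74.7 and 26.7 in isolated livers against 80.6, 196 and 152 in control livers, with a limma adjusted p of 0.0195 that was lost in 8 of the 16 alternatives tried. The other 6 that fell did so by 1.75 to 2.50-fold. Without the intensity trend Pdk4 was the 1 gene of the list that passed, with Acot1 at 0.0585 and Angptl4 at 0.062. With a robust trend Pdk4 (0.0709) and Angptl4 (0.0699) did not pass, and without control replicate 3, 6 genes passed.

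Of 15 tested ATF4 target genes 1 fell and 0 rose, beside 0.847% of all tested genes called lower. The median difference was 0.17, and 9 of the 15 lay above 0, beside 6417 of all 10986 tested genes. Chac1, which degrades glutathione, had signals of 81.0, 29.5 and 61.7 in isolated livers against 119, 122 and 176 in control livers, 2.52-fold lower with a limma adjusted p of 0.0143. Its arrays did not overlap, and the call was lost in 5 of 16 alternatives, among them a robust trend (0.0528) and leaving out control replicate 3 (0.121). Without isolated replicates 2 and 3 the log2 difference of -1.33 was -0.74 (0.344). Ddit4, an mTOR inhibitor under ATF4, had 85.6, 79.0 and 131 in isolated livers against 36.8, 42.0 and 72.6 in control livers, and a limma adjusted p of 0.0701. Ddit4 passed in 5 of 16 alternatives, one of them without control replicate 3, at 0.0287.

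Klb, the co-receptor, had 1 probe set above the filter, with signals of 216.2, 169 and 269 on isolated arrays 1, 2 and 3, against 216, 249 and 269 on control arrays 1, 2 and 3. The groups overlapped: isolated arrays 1 and 3 matched controls 1 and 3 to within 1 signal unit, and isolated array 2 was the lowest of the 6. The log2 difference was -0.18 ± 0.19 (SE), from -0.35 without isolated replicate 3 to -0.01 without isolated replicate 2. The other Klb probe set stayed between 1.09 and 3.59 on all 6 arrays, far under the floor.

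Fgfr4, the main FGF receptor of hepatocytes, differed between groups by less than the spread of the arrays in its brightest probe set. Probe set 1418596_at had signals of 198, 164 and 214 on isolated arrays 1, 2 and 3, against 184, 163 and 197 on control arrays 1, 2 and 3. The log2 difference was 0.08 ± 0.18 (SE), and isolated and control arrays interleaved. Its 3 other tested probe sets averaged 55.1 ± 21.3 in isolated and 50.6 ± 10.3 in control livers, 57.1 ± 22.2 in isolated and 66.5 ± 5.23 in control livers, and 61.8 ± 17.1 in isolated and 59.0 ± 3.27 in control livers (SD, n = 3 each). All 3 were lowest on isolated array 2, at 35.3, 31.5 and 42.8, against 50.3, 60.5 and 58.8 on control array 1. The trimmed mean signal over all probe sets was 92.0 on isolated array 2, 92.4 on control array 1 and up to 110.4 on the others. The part of array brightness in these values was not tested. The fifth probe set read 8.31 or less on every array.

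Fgfr2, a receptor with splice forms for different FGF ligands, lay lower on average in isolated livers in its 2 tested probe sets. The third, 1443211_at, lay under the floor on every array. It read 1.42, 11.9 and 1.44 on isolated arrays 1, 2 and 3, against 13.7, 3.46 and 10.4 on control arrays 1, 2 and 3. Probe set 1433489_s_at had 117, 105 and 152 on isolated arrays 1, 2 and 3, against 175, 138 and 178 on control arrays 1, 2 and 3, a log2 difference of -0.39 ± 0.20 (SE). Isolated array 3 lay above control array 2, so the groups overlapped. Probe set 1420847_a_at had 31.1, 49.5 and 106 on isolated arrays 1, 2 and 3, against 92.4, 73.9 and 85.7 on control arrays 1, 2 and 3, a log2 difference of -0.59 ± 0.30 (SE). Here isolated array 3 was the highest of all 6 and isolated array 1 the lowest, and the log2 difference was -1.05 without isolated replicate 3, a fit in which limma called it lower, and -0.20 without isolated replicate 1. The coefficient of variation of that probe set was 62.7% in isolated livers and 11.2% in control livers. Bile duct cells also express Fgfr2. Of 5 cholangiocyte markers 4 were measured, 0 were called, and their summed signal was 79.7 to 96.4 in isolated livers and 42.4 to 82.2 in control livers.

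The 2 probe sets of Fgfr3, a receptor best known as a brake on bone growth, had differences of opposite sign. Probe set 1421841_at had 329, 203 and 242 on isolated arrays 1, 2 and 3, against 208, 166 and 218 on control arrays 1, 2 and 3, a log2 difference of 0.36 ± 0.20 (SE), from 0.18 without isolated replicate 1 to 0.52 without isolated replicate 2. Isolated array 2 lay among the controls. Probe set 1425796_a_at had 47.0, 29.8 and 18.5 on isolated arrays 1, 2 and 3, against 33.6, 46.6 and 37.9 on control arrays 1, 2 and 3, a log2 difference of -0.37 ± 0.32 (SE), from -0.68 without isolated replicate 1 to -0.05 without isolated replicate 3. No direction can be given for the gene.

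Fgfr1, the receptor through which FGF21 acts on fat, was below the filter in its 3 probe sets. Probe set 1424050_s_at nevertheless separated the groups, with 14.6, 32.4 and 19.5 on isolated arrays 1, 2 and 3, against 10.1, 3.51 and 2.50 on control arrays 1, 2 and 3. The means were 22.2 ± 9.17 in isolated and 5.37 ± 4.13 in control livers (SD, n = 3 each), and 4 of the 6 signals lay under the floor, so no fold is given. By its suffix this probe set can also detect related transcripts. Among the tested probe sets of the system, that limit also holds for 1433489_s_at of Fgfr2. By their own suffix it holds for 1427777_x_at and 1427846_x_at of Fgfr4 too. The other probe sets overlapped, with 16.97 ± 7.21 in isolated and 13.5 ± 11.4 in control livers for 1425911_a_at and 7.12 ± 5.00 in isolated and 5.00 ± 6.39 in control livers for 1436551_at (SD, n = 3 each). Markers of fat, a tissue that expresses Fgfr1 and Klb, were read beside these values. Of 8 adipocyte markers 6 were measured, 2 passed the filter and 0 were called, and their summed signal was 284, 472 and 544 on isolated arrays 1, 2 and 3, against 203, 295 and 248 on control arrays 1, 2 and 3. Adiponectin (Adipoq) read 3.78, 59.5 and 54.8 on isolated arrays 1, 2 and 3, against 4.38, 8.48 and 15.6 on control arrays 1, 2 and 3. The fatty acid carrier gene Fabp4, the brightest of these markers, read 203, 300.3 and 404 on isolated arrays 1, 2 and 3, against 117, 202 and 157 on control arrays 1, 2 and 3, without overlap and with a limma adjusted p of 0.0578. Resistin (Retn) read 2.65, 19.96 and 42.2 on isolated arrays 1, 2 and 3, against 2.39, 2.78 and 3.88 on control arrays 1, 2 and 3. These 3 genes were on average higher in isolated livers, whereas Lipe averaged 58.9 in isolated and 63.7 in control livers, Cidea 9.56 in isolated and 11.7 in control livers, and leptin (Lep) read 3.30 or less on every array. The part of fat cells in the Fgfr1 values was not tested. Adiponectin and resistin were highest on isolated arrays 2 and 3. Fgf21 read 16.5, 10.3 and 26.0 on isolated arrays 1, 2 and 3, of which arrays 1 and 2 lay under the floor. Fabp4 on isolated array 1, at 203, was not below any control array. The part of fat cells in the Fgf21 values was not tested either.

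Of the other FGF ligands, Klotho and FGF-binding proteins, 11 of 13 genes were below the filter in all probe sets, among them the gut hormone gene Fgf15, at a group mean of 8.30 or less, and Kl, the FGF23 co-receptor gene, at 8.87 or less. The 2 tested genes were not called, beside 0.901% of all tested genes called higher and 0.847% called lower. Fgf1, a ligand of all FGF receptors, had 783, 698 and 594 in isolated livers against 853, 709 and 831 in control livers, with a limma adjusted p of 0.707. The decoy receptor gene Fgfrl1 had 332, 271 and 429 in isolated livers against 293, 316 and 337 in control livers, with a limma adjusted p of 0.915.

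Downstream of the receptors, 0 of 12 tested adaptors and kinases of the RAS-ERK cascade were called. Of all tested genes 0.901% were called higher and 0.847% lower. The list had a median difference of 0.09. The adaptor Gab1 had 133, 100.1 and 106 in isolated livers against 181, 165 and 190.5 in control livers, without overlap, and a limma adjusted p of 0.0918 that became 0.0478 with quantile normalization and 0.0392 with the upper 30% of probe sets kept. Shc1, another adaptor, had a log2 difference of 0.41 ± 0.21 and a limma adjusted p of 0.502.

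Of 12 tested transcripts that ERK signalling is known to induce, 3 fell and 0 rose, beside 0.847% of all tested genes called lower. The median difference was -0.42, and 10 of 12 lay below 0, beside 4569 of all 10986 tested genes. Fos, an immediate early factor, had 9.53, 12.2 and 20.7 in isolated livers against 48.2, 101 and 52.6 in control livers, with a limma adjusted p of 0.00189; the log2 difference of -2.08 was -1.43 with a pseudocount of 16. The isolated mean of Fos, 14.1, lay under the floor, so Fos passed the filter through the control arrays, and with the upper 30% of probe sets kept it was not tested. Egr1, another immediate early gene, had 18.7, 44.5 and 38.0 in isolated livers against 95.7, 153 and 112 in control livers, 3.56-fold lower with a limma adjusted p of 0.000693; the log2 difference of -1.83 was -2.54 without isolated replicates 2 and 3. Spry4, a feedback inhibitor of receptor tyrosine kinase signalling, had 27.9, 32.6 and 41.1 in isolated livers against 83.3, 55.4 and 76.6 in control livers, with a limma adjusted p of 0.0368. The 3 genes separated the groups. The Spry4 call was lost in 8 of the 15 alternatives that tested it, and the other tested probe set of Spry4 had a log2 difference of -0.17. Without the intensity trend 0 of the list passed. Many stimuli besides FGF receptors induce these genes.

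In the bile acid genes under FGFR4 and beta-Klotho, 1 rose and 1 fell of 8 tested, beside 0.901% of all tested genes called higher and 0.847% called lower. Cyp7a1, whose enzyme starts the main route from cholesterol to bile acids and which FGF15 represses, had 4020.1, 1958 and 4091 in isolated livers against 1032, 349 and 529 in control livers, 5.51-fold higher with a limma adjusted p of 3.23e-05. Nr0b2, which codes for SHP, a repressor of Cyp7a1, had 286, 445 and 605 in isolated livers against 1190, 1282 and 1036 in control livers, 2.73-fold lower with a limma adjusted p of 0.000292. Neither group overlapped the other in either gene. The Cyp7a1 call was lost without the intensity trend (0.0797) and with a robust trend (0.2), and Nr0b2 did not pass without the trend (0.106).

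**Figure D3:**
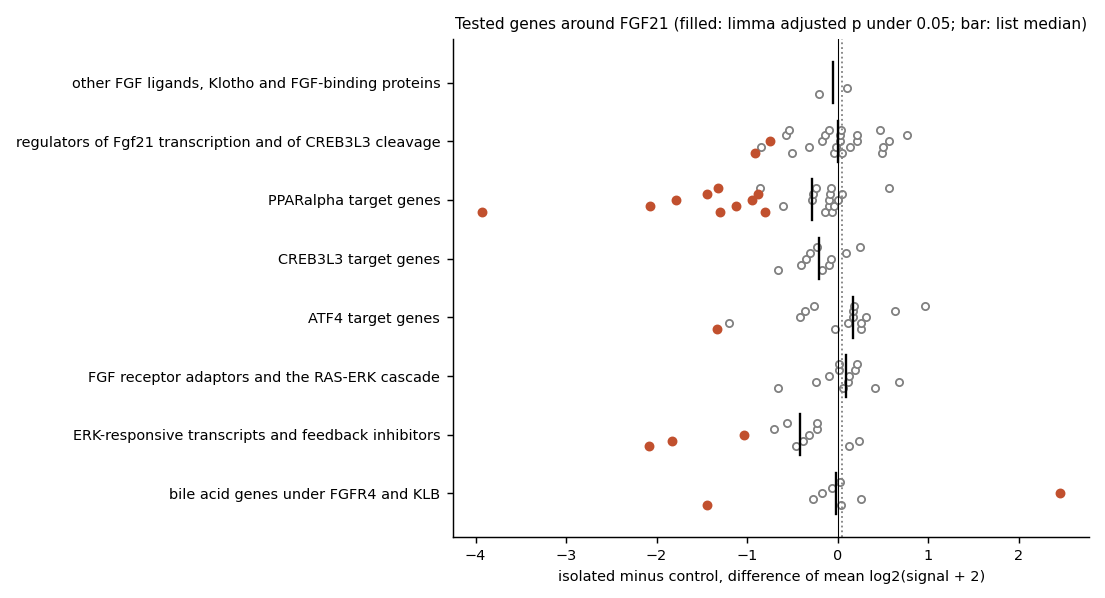
Isolated minus control difference of mean log2(signal + 2) of every tested gene in the 8 lists around FGF21, filled where the limma adjusted p was under 0.05, with the list median as a bar and the median of all tested genes dotted. PPARalpha target genes hold 10 filled points, and Cyp7a1 is the 1 filled point to the right of 0.

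The genes most like Fgf21 in pattern were named by the correlation of log2 values over the 6 arrays, among 10980 other genes. Pearson's r was 0.996 for Sulf2, an extracellular sulfatase that trims heparan sulfate, 0.994 for Zbtb2, 0.993 for the DNA helicase subunit gene Mcm7, 0.991 for Zpr1 and 0.985 for the phosphate transporter gene Slc34a2. Sulf2 had 352, 337 and 391 on isolated arrays 1, 2 and 3, against 455, 540.3 and 523 on control arrays 1, 2 and 3. As in Fgf21, isolated array 2 and control array 1 were the lowest of their groups, and isolated array 3 and control array 2 the highest. The 5 genes had log2 differences of -0.39 to -0.87 and limma adjusted p of 0.0773 to 0.404 in these probe sets, and a second probe set of Zpr1 was called lower, with a log2 difference of -1.72 and a limma adjusted p of 4.3e-05. The arrays form 2 groups, so such correlations mostly restate the difference between them: 63 genes had an r over 0.95, and 39 had a Spearman's rho of 1. Among the other probe sets of the FGF21 system above the filter, r with Fgf21 ran from -0.58 for Fgfr3 (1421841_at) to 0.73 for Fgfr2 (1433489_s_at), with 0.64 for Klb and 0.44 for Creb3l3.

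Taking each array's deviation from its group mean removes that difference. On these deviations the genes most like Fgf21 were Actl10 (r = 0.998), Lyrm9 (0.995) and Pkd1 (0.994), all dim, with log2 differences between groups of -0.06, -0.02 and 0.00, and Sulf2 had an r of 0.974. These values rest on 6 arrays and are given without a test.

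**Figure D4:**
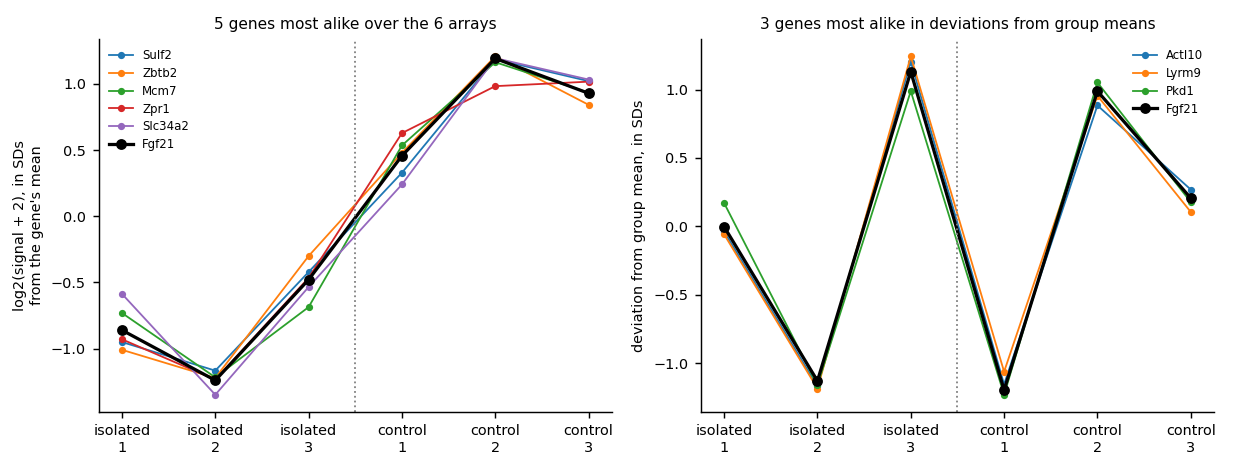
Left, log2(signal + 2) of Fgf21 (black) and the 5 genes most like it over the 6 arrays, in SDs from each gene's mean. Right, deviations from the group means, in SDs, of Fgf21 and the 3 genes most like it on that measure, where isolated array 3 and control array 2 are high in all 4 genes and isolated array 2 and control array 1 low.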

How the data were processed

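Total RNA of 6 mouse liver samples was hybridised to Affymetrix arrays, 1 per sample. The deposited intensity values are MAS5 signals per the submitters' processing notes; their scaling target, software version and detection calls were not at hand. The column medians were 18.4 to 22.1, which leaves the scale linear and uncentred, with the scaling of arrays unknown. The 64 control probe sets were left out. A pseudocount of 2 was added before log2, so fold changes of dim probe sets are understated. The upper 50% of probe sets by mean log2 value were tested with limma 3.58.1 in R 4.3.3 (2 groups, eBayes with an intensity trend that weighed 16.1 degrees of freedom against 4 from the arrays, two-sided, Benjamini-Hochberg over 22519 probe sets, call under 0.05). All limma adjusted p-values come from this fit unless a setting is named. Precision is limited by the number of arrays, and 3 against 3 allows no exact p below 0.1.

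Symbols were those of the platform annotation (34958 probe sets with 1 symbol, 932 with several, 9211 with none); promoters came from RefSeq, with entries for 6 of the 7 genes. The members, the 8 pathway lists (145 genes) and the 9 marker lists were chosen with earlier results of these data known. Named genes were the 7 members, up to 4 called genes per list by size of difference, list genes of smallest p until 2 were named, and the genes most like Fgf21. The procedure was tested on simulated data. Alternatives covered pseudocount, normalization, filter, variance model, probe set per gene, replicate block and arrays left out. Arrays of 1 group correlated at 0.969 or more over tested probe sets, and 3' to 5' signal ratios of the Gapdh control were 0.689 to 0.695 in isolated and 0.692 to 0.719 in control livers, and those of the Actb control 1.99 to 2.35 in isolated and 2.14 to 2.32 in control livers. Figures were drawn with matplotlib 3.10.9.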

Additional observations from a re-analysis of the deposited data

How the results depend on the processing

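The log2 difference of Fgf21 kept its sign under the alternatives that gave it a value. Its groups did not overlap, so no pseudocount or left-out array could have changed that sign, and it is no support. The difference was -2.02 with a pseudocount of 16 and ran from -3.00 to -2.39 with 1 array left out. Fgf21 was not tested when the upper 30% of probe sets were kept. Over the whole array, 174 probe sets were called higher and 193 lower. Higher calls numbered 263 with median centring, 264 with the upper 30% kept, 81 with no filter, 15 with no intensity trend, 90 without isolated replicates 2 and 3 (a fit on 1 isolated array, taken to vary as controls do), and 97 to 200 with 1 array left out. Lower calls numbered 101 with no filter, 16 with no intensity trend, and 82 to 246 with 1 array left out. The cause of these changes was not tested.

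With no intensity trend, PPARalpha targets had 1 lower call, and regulators of Fgf21, ATF4 targets, ERK-responsive genes and bile acid genes had 0, the last also 0 higher. With no filter, regulators and ATF4 targets had 0 lower calls. With a robust trend, ATF4 targets had 0 lower and 1 higher, and bile acid genes 0 higher. ATF4 targets had 1 higher call with median centring and with the upper 30% kept. CREB3L3 targets had 1 lower call with the upper 30% kept, and the RAS-ERK cascade 1 with the upper 30% kept or quantile normalization. Without isolated replicates 2 and 3, regulators had 1 lower call, CREB3L3 targets 2, and ERK-responsive genes 1 higher. With 1 array left out, lower calls ran from 0 to 2 in regulators, CREB3L3 targets and ATF4 targets, from 6 to 11 in PPARalpha targets and from 2 to 4 in ERK-responsive genes, and higher calls of ATF4 targets from 0 to 1.

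The labels number the samples but name no litter, batch or pair. Deviations of same-numbered arrays correlated at 0.00491 to 0.0436, and 4 of 6 arrays correlated best with their own number. These values cannot tell whether arrays were paired. With the replicate block, 265 probe sets were called higher and 248 lower, and ATF4 targets had 2 lower and 1 higher.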
